A study of Caenorhabditis elegans with 2 samples.

Results

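The SL2 spliced leader RNA genes sls-2.1, sls-2.2, sls-2.4, sls-2.8, sls-2.9 and sls-2.15 are 6 of the 18 genes named sls-2 in the nematode Caenorhabditis elegans, and 6 of the 46890 genes of any kind annotated on its nuclear chromosomes. They were listed because each has a call in the authors' optimal peak list for the tagged transcription factor SDZ-12. A call was taken for a gene when its summit, the position of highest signal, lay inside the gene or at most 200 bp from it. Every call at these genes is therefore a description of how they were chosen, and no test was made. An SL2 gene that was not listed, sls-2.14, also met that distance and is given beside them.

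SDZ-12 belongs to the C2H2 zinc finger proteins. Chromatin came from whole worms of strain OP670, which carry the mutation unc-119(tm4063) and the integrated array wgIs670. The array holds the fusion sdz-12::TY1::EGFP::3xFLAG and a rescuing copy, unc-119(+), so both replicates carry the mutation, the fusion with green fluorescent protein and the rescue. The worms were L4 larvae of mixed sex at 71 hours, from a synchronised start as starved L1 larvae, and an anti-GFP antibody was used on the sonicated chromatin. Per the labels the 2 libraries are biological replicates of this single group. No second strain, stage or treatment was compared, and the control file was not used here. Whole animals were used, so the signal cannot be assigned to a tissue. The antibody reports the fusion made from the array, and binding of untagged SDZ-12 was not measured.

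In nematodes many messenger RNAs receive their first bases from a short spliced leader RNA by trans-splicing. The SL1 leader is joined to the first gene of an operon and to many single genes, whereas SL2 leaders are joined mainly to downstream genes of operons, the clusters that are transcribed as one precursor RNA. Each SL RNA gene encodes a small noncoding RNA that starts with the leader, continues after a splice donor site, and carries a binding site for Sm proteins, so that the RNA works as a small nuclear ribonucleoprotein that is used up in the reaction. SL RNA genes are transcribed as separate units, and the annotation gives them the biotype snRNA.

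Sequences of 4 of the listed genes are shown so that the summits can be placed on the leader and the rest of the gene. They run 5′ to 3′ on the strand of each gene, from the RefSeq copy of assembly WBcel235 (ce11). Capitals at the start of each gene mark the leader, taken as the run from the annotated 5′ end to the AG of the first AGGT. In the first 3 sequences a second run of 11 capitals is centred on the strongest pooled summit. The windows run from 100 bp upstream of the gene, at II:5543498-5543747 for sls-2.2, II:5844765-5845014 for sls-2.1 and III:11090910-11091159 for sls-2.15, all on the + strand.
sls-2.2: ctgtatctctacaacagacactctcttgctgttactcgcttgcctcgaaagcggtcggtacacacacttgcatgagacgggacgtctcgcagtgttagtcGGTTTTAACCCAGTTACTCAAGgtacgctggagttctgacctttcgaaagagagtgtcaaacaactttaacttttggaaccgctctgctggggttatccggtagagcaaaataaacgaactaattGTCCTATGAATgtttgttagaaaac
sls-2.1: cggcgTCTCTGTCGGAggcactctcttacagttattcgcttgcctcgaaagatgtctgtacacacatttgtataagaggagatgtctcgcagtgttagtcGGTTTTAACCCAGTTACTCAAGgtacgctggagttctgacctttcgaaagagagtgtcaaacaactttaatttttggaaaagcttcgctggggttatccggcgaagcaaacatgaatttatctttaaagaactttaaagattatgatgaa
sls-2.15: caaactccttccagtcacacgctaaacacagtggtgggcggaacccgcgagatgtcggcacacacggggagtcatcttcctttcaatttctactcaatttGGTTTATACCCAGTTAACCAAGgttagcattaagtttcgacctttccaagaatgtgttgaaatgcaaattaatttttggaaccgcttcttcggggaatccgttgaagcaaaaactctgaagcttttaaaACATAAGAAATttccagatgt
In sls-2.2 and sls-2.15 the second capitals lie just past the 3′ end of the gene, and in sls-2.1 they lie upstream of it. The sls-2.8 window, III:12250365-12250659 on the + strand, also starts 100 bp upstream, but its summit falls beyond the end of the window and only the leader is in capitals.
sls-2.8: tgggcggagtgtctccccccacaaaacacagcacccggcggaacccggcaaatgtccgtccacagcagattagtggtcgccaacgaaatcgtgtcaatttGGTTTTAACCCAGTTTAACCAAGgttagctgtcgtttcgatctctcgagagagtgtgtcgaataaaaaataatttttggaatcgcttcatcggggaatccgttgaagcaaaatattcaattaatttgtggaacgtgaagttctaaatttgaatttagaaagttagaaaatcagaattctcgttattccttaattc
For comparison, 3 SL2 genes that were not listed are shown over the gene alone, sls-2.14 (III:11090412-11090523), sls-2.3 (II:5544164-5544273) and sls-2.10 (IV:9130721-9130829), all on the − strand. An SL1 gene, the first annotated copy of sls-1.10 (V:17118154-17118251, + strand), is shown last, with its leader at bases 2 to 23 in capitals.
sls-2.14: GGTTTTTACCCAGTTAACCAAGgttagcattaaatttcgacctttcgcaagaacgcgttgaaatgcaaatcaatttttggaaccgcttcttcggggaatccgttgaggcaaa
sls-2.3: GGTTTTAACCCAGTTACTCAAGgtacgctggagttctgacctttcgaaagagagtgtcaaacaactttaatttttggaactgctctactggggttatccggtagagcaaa
sls-2.10: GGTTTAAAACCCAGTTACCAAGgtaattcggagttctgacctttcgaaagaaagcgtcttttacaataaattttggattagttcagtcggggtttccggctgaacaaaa
sls-1.10 copy 1: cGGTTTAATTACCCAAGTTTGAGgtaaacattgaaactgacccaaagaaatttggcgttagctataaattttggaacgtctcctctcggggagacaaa
The leader of sls-2.3 has the same letters as those of sls-2.1 and sls-2.2.

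The optimal list holds 665 peaks, with the authors' signal value running from 136 to 538, and it matches the 665 strongest calls made on both replicates pooled. The pooled list and each replicate list hold 30000 calls, background calls included. Ranks below are by signal within a list, with rank 1 the strongest. The signal value has no stated scale, so signals were not compared between lists. Depth is unknown. A summit within 200 bp was found in the optimal list for 885 genes of any kind, which is 1.89% of 46890, and for 7 of the 18 SL2 genes, which is 38.9%. The 6 listed genes were chosen from these calls, so nothing is read from the difference. Their strongest pooled signals ran from 160 to 531 with a median of 210.4, and their ranks ran from 2 to 368 with a median of 135.5.

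**Figure D1:**
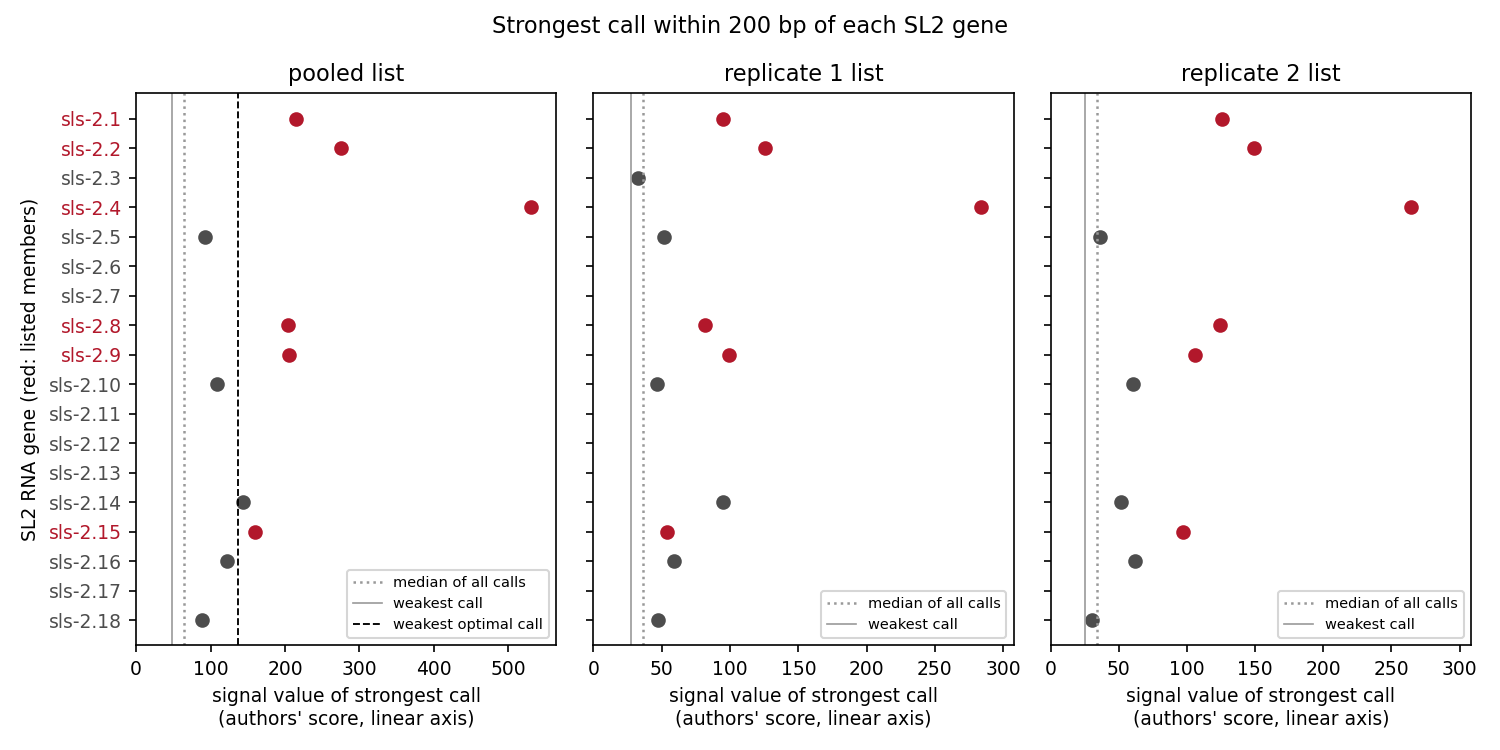
Authors' signal value of the strongest call within 200 bp of each SL2 gene in the pooled, replicate 1 and replicate 2 lists, with 1 point for each gene and list. The pooled signal of sls-2.4 is 530.6, and the other 5 listed genes lie between 160 and 275 in the pooled list.

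The sls-2.4 gene (WBGene00004836, I:4172206-4172315, + strand) had the strongest call of the family in all lists. Its signal was 530.6 at rank 2 in the pooled list, 283.5 at rank 2 in replicate 1 and 264.3 at rank 2 in replicate 2. The replicates therefore gave it the same rank. The pooled summit lay at 155 bp from the 5′ end of the gene, 46 bp past its 3′ end, the replicate 1 summit at 168 bp, and the replicate 2 summit at 96 bp, inside the gene. The called interval was 201 bp long in the pooled list and 108 bp in replicate 2, shorter than the median interval of 420 bp in both lists. Replicate 2 also held a second call at 305 bp, with a signal of 84.7 at rank 321. An antisense noncoding RNA gene, R12E2.18, overlaps sls-2.4, and the pooled summit is in the promoter window of R12E2.18, at -55 bp from its 5′ end. The protein-coding gene R12E2.11 ends 77 bp from the pooled summit. The summit also falls in the promoter window of egg-5, which encodes a protein of the oocyte-to-embryo transition, at -772 bp from its 5′ end. A promoter window here runs from 1000 bp upstream to 200 bp downstream of a 5′ end.

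The sls-2.2 gene (WBGene00004834, II:5543598-5543707, + strand) ranked next among the listed genes. Its signal was 274.8 at rank 50 in the pooled list, 125.8 at rank 94 in replicate 1 and 148.9 at rank 31 in replicate 2. The summits lay at 130 bp, 130 bp and 138 bp from the 5′ end, the closest agreement in position among the listed genes, with a gap of 8 bp between replicates. The pooled summit was 21 bp past the 3′ end. The antisense noncoding RNA gene C17C3.23 overlaps the gene, and the summit is in its promoter window, at -30 bp from the 5′ end of C17C3.23. Another noncoding RNA gene, C17C3.22, also has the summit in its promoter window, at -445 bp. Beyond the 200 bp limit, a further pooled call lay at 331 bp with a signal of 82.6 at rank 6140.

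On the other side of that interval lies sls-2.3, whose 3′ end faces that of sls-2.2 across 456 bp. The sls-2.3 gene has 97.3% of its bases in common with sls-2.2 but had no pooled or replicate 2 call within 200 bp. Replicate 1 held a call at 219 bp from its 5′ end, with a signal of 32.5 at rank 20776. This pair thus holds 1 of the strongest calls of the family beside 1 gene and only a low-ranked replicate 1 call beside the other.

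The sls-2.1 gene (WBGene00004833, II:5844865-5844974, + strand) was the only listed gene with 2 optimal peaks within 200 bp. The first had its summit upstream of the gene, at -90 bp, with a pooled signal of 215.0 at rank 129. The second lay at 129 bp, 20 bp past the 3′ end, with a pooled signal of 143.9 at rank 535. In replicate 1 the corresponding calls were at -44 bp with a signal of 94.9 at rank 287 and at 158 bp with 77.8 at rank 599. In replicate 2 they were at -90 bp with 125.6 at rank 63 and at 129 bp with 68.1 at rank 835. The upstream summit was the stronger in both replicates. The gene nep-25, named as a neprilysin-type metallopeptidase, ends 155 bp from the upstream summit, and the second summit is in the promoter window of H41C03.3.

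The sls-2.8 gene (WBGene00004840, III:12250465-12250575, + strand) had a signal of 204.0 at rank 145 in the pooled list, 81.3 at rank 495 in replicate 1 and 124.2 at rank 66 in replicate 2. Its summits lay at 217 bp, 242 bp and 210 bp from the 5′ end. The pooled summit was thus 107 bp past the 3′ end and inside the protein-coding gene Y75B8A.23, in a coding exon 22 bp from the 5′ end of that gene. The summit is also in the promoter windows of tim-1, which encodes a Timeless family protein, and of Y75B8A.49, an antisense noncoding RNA gene that overlaps sls-2.8. The call can therefore be placed at several genes, and which of them it belongs to was not tested.

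The sls-2.9 gene (WBGene00004841, I:13297877-13297985, + strand) had a pooled signal of 205.8 at rank 142, with the summit at -200 bp, exactly at the distance limit. That summit lies inside a tRNA gene on the opposite strand (WBGene00014446, I:13297673-13297745), 68 bp from the 5′ end of the tRNA gene, and in the noncoding RNA gene M01E5.8. A second pooled call lay at 2 bp from the 5′ end of sls-2.9, with a signal of 86.2 at rank 5160. Replicate 1 had a signal of 99.4 at rank 227 with its summit at -195 bp, and replicate 2 had 105.5 at rank 141 with its summit at -69 bp. The ranks were close, but the summits differed by 126 bp, the widest gap among the listed genes. The replicate 2 summit was the nearer to sls-2.9.

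The sls-2.15 gene (WBGene00004847, III:11091010-11091121, + strand) had the weakest optimal peak of the listed genes and the least alike ranks. Its signal was 160.0 at rank 368 in the pooled list, 53.7 at rank 3536 in replicate 1 and 96.9 at rank 195 in replicate 2. The pooled and replicate 1 summits both lay at 134 bp from the 5′ end, 23 bp past the 3′ end, and the replicate 2 summit lay at 75 bp, inside the gene. A second replicate 2 call was found at 309 bp with a signal of 59.6 at rank 1546. The gene lies in an intron of the protein-coding gene W09D6.5, on the same strand. The peak was among the 665 strongest calls of replicate 2 and not of replicate 1. Over the whole optimal list, 47.1% of peaks had a rank of at most 665 in each replicate.

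The sls-2.14 gene (WBGene00004846, III:11090412-11090523, − strand) lies in the same gene, W09D6.5, with its 5′ end facing that of sls-2.15 across 486 bp. Its optimal peak had a signal of 143.6 at rank 543, close to the weakest in the list, 136 at rank 665. In replicate 1 the signal was 95.0 at rank 285, and in replicate 2 it was 51.4 at rank 3094, the reverse of the order seen at sls-2.15. The summit lay at 220 bp in all 3 lists, 109 bp past the 3′ end and in a coding exon of W09D6.5. The pooled and replicate 1 summits of this pair thus lie past the outer, 3′ ends of both genes, while the replicate 2 summit of sls-2.15 is inside the gene. In the interval between the 5′ ends replicate 1 alone held a call, of signal 30.5 at rank 24239.

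**Figure D2:**
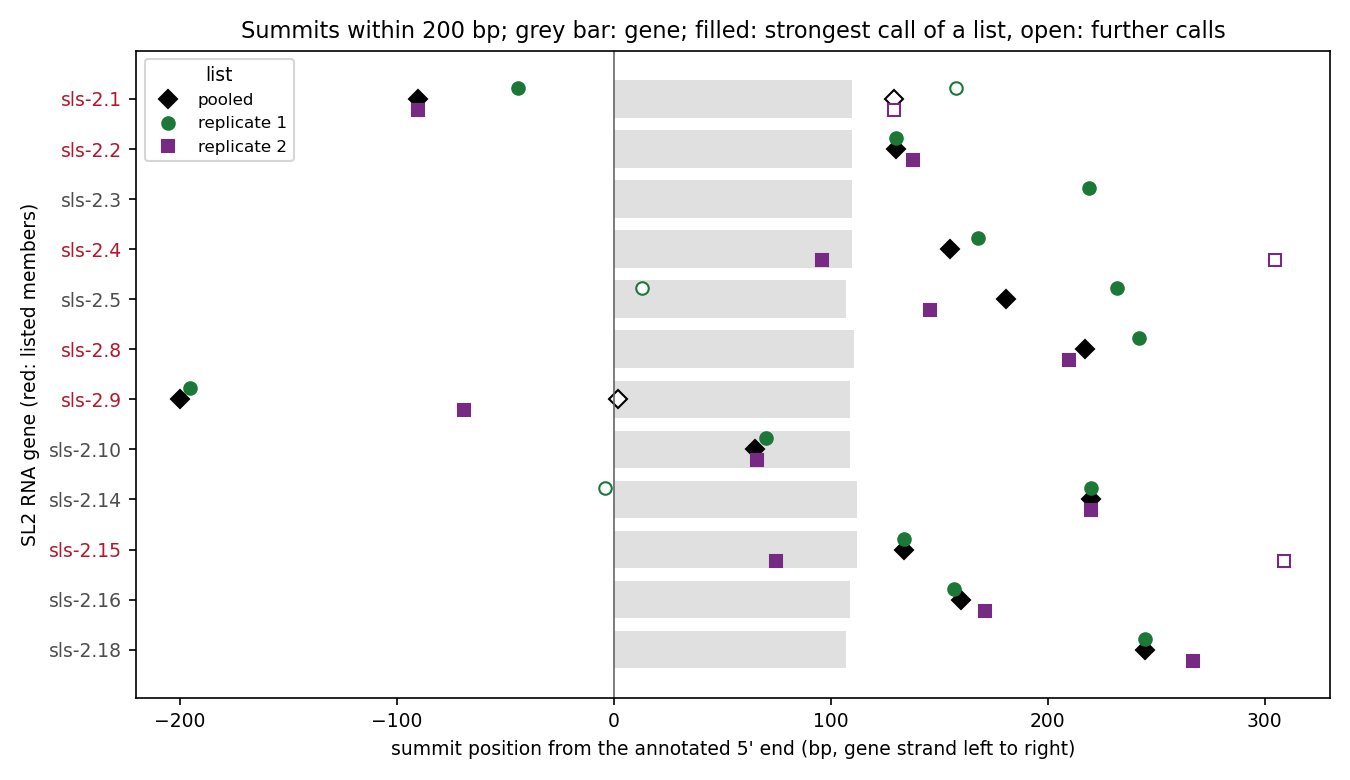
Position of each call's summit in bp from the annotated 5′ end of each SL2 gene, by list, with the gene drawn as a bar and upstream positions negative. The strongest pooled summits of sls-2.2, sls-2.4, sls-2.8 and sls-2.15 are past the 3′ end, and those of sls-2.1 and sls-2.9 are upstream.

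The strongest optimal summits of the 6 listed genes fell upstream of the gene in 2, inside it in 0 and past its 3′ end in 4, with a median of 132 bp from the 5′ end. The sides were the same in replicate 1. In replicate 2 they were 2 upstream, 2 inside and 2 past the 3′ end, with a median of 85.5 bp, because the summits of sls-2.4 and sls-2.15 were called inside the genes. The gap between the replicate summits ran from 8 to 126 bp with a median of 52.5 bp. At sls-2.4 and sls-2.15 that gap spans the 3′ end, so the side of the summit at these genes differs between replicates. At sls-2.2, sls-2.4 and sls-2.8 the optimal summit past the 3′ end also lies upstream of the overlapping antisense noncoding RNA gene. It is at -30 bp, -55 bp and -110 bp from the 5′ end of that gene. Which gene these summits belong to was not tested.

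Other small RNA genes served to set these positions beside. An optimal summit lay within 200 bp of 52 of 346 snoRNA genes, which is 15%, with 43 upstream, 8 inside and 1 past the 3′ end, and a median of -38.5 bp. It lay within 200 bp of 140 of 612 tRNA genes, which is 22.9%, with 42 upstream, 62 inside and 36 past the 3′ end, and a median of 37 bp. Of the 99 snRNA genes that are not sls genes, 5 had one, which is 5.05%. These were R07E5.16 with a signal of 255.3, sup-6 with 233.0, T11F9.15 with 212.8, F54D8.7 with 184.0 and M163.13 with 154.7, and they had 2 summits upstream, 2 inside and 1 past the 3′ end. In the optimal list the strongest summit was thus past the 3′ end at 4 of the 6 listed SL2 genes. It was there at 1 of 52 snoRNA genes, 36 of 140 tRNA genes and 1 of 5 other snRNA genes. In replicate 2 the count for the listed genes was 2 of 6. With members chosen from the same calls, these counts are a description.

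**Figure D3:**
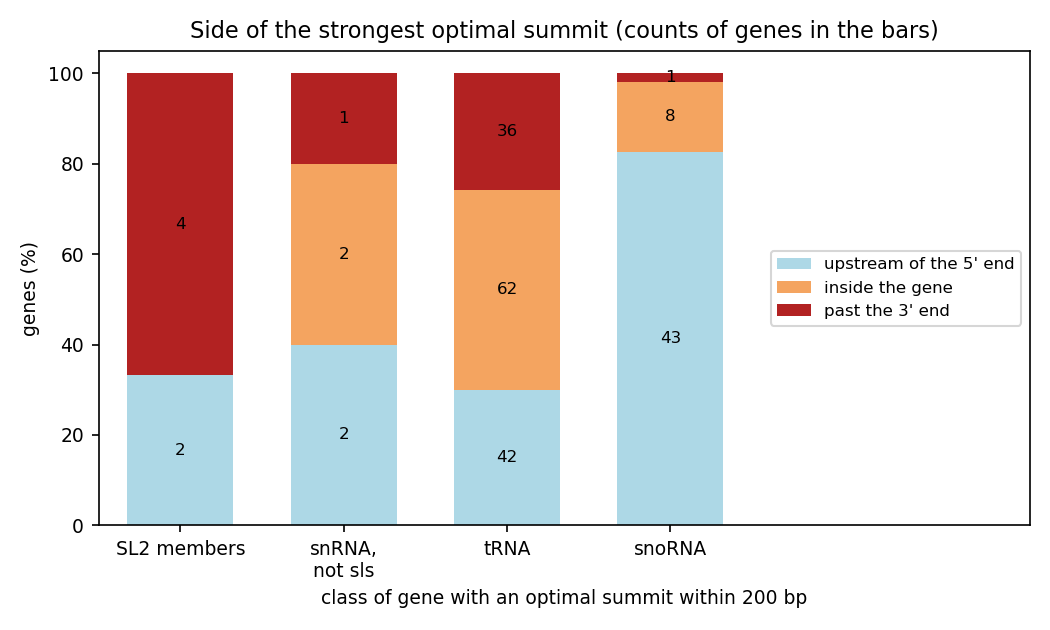
Share in percent of genes with an optimal summit within 200 bp whose strongest summit is upstream of the gene, inside it or past its 3′ end, by gene class, with the number of genes written in each part of a bar. Of the snoRNA genes 82.7% have the summit upstream, against 30% of the tRNA genes.

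The replicates were compared by rank. Among the 665 strongest calls of replicate 1, a summit lay within 200 bp of 1.8% of genes of any kind and of 6 SL2 genes, which is 33.3%. In replicate 2 the shares were 1.91% and again 6 SL2 genes, or 33.3%. The 6 in replicate 1 were sls-2.14 and all listed genes but sls-2.15, and the 6 in replicate 2 were the listed genes. The listed genes were chosen from peaks made from these same replicates. Nothing is therefore read from the difference between SL2 genes and genes of any kind. The rank was better in replicate 2 at 5 of the 6 listed genes and equal at sls-2.4, whereas over the 650 optimal peaks with a call in both replicates 51.1% ranked better in replicate 2. The worse rank divided by the better was 1.61 at sls-2.9, 3.03 at sls-2.2, 4.56 at sls-2.1, 7.5 at sls-2.8 and 18.1 at sls-2.15, with a median of 3.79 over the listed genes. The median over the 650 peaks was 2.36, with quartiles of 1.46 and 5.06. The ratios at sls-2.8 and sls-2.15 lie above the upper quartile, and the other 4 do not.

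**Figure D4:**
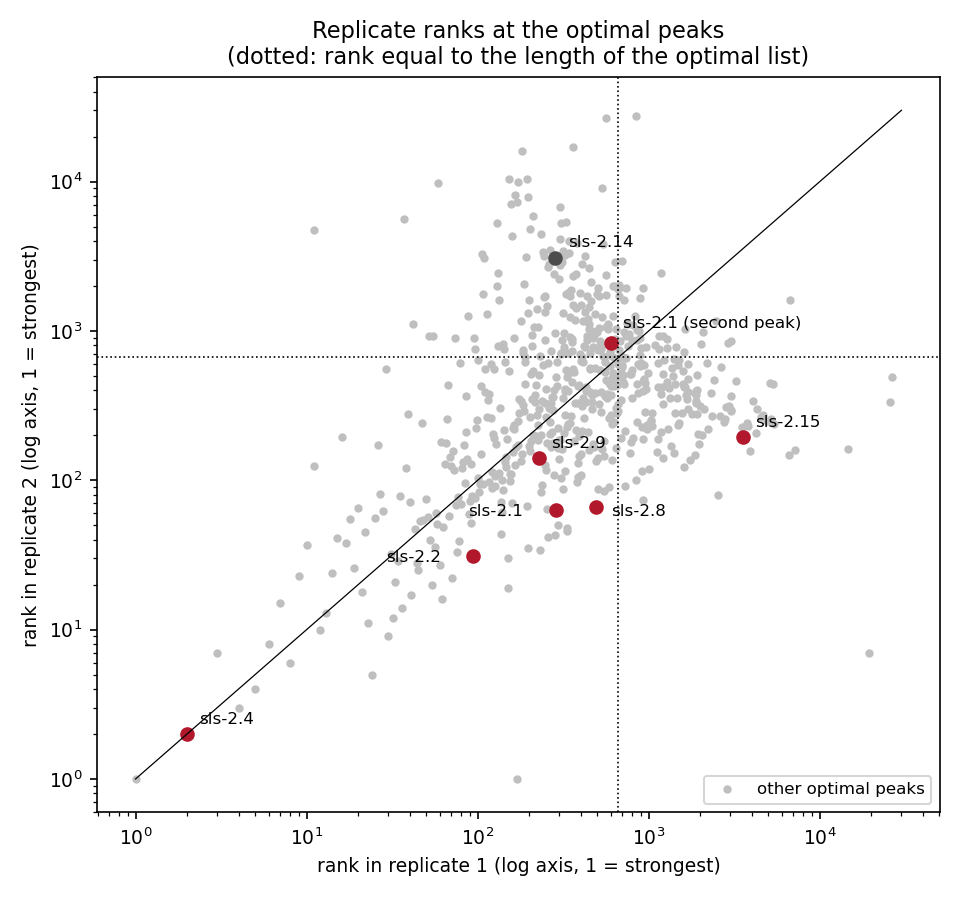
Rank in replicate 1 against rank in replicate 2, both on log axes, for the nearest call within 200 bp of each optimal summit, with SL2 genes named and other optimal peaks in grey. The dotted lines mark rank 665, which sls-2.15 exceeds in replicate 1, and sls-2.14 and the second peak of sls-2.1 in replicate 2.

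Of the 12 SL2 genes that were not listed, 5 had a pooled call within 200 bp, counting sls-2.14, and 6 had a call in no list. Taking all calls, a summit lay within 200 bp of 61.1% of SL2 genes in the pooled list, 66.7% in replicate 1 and 61.1% in replicate 2, against 32.7%, 33.6% and 32.3% of genes of any kind. The SL2 shares include the listed genes, which were chosen for having calls. Over the 12 unlisted genes alone they were 41.7%, 50% and 41.7%. That share is lowered by the same choice, since the listed genes with calls were taken out, so nothing is read from either difference. The pooled signal was 121.8 at rank 1094 for sls-2.16, with the summit at 160 bp. It was 109.1 at rank 1783 for sls-2.10, at 65 bp, the one among these 5 with a summit inside the gene. It was 92.3 at rank 3945 for sls-2.5, at 181 bp, and 88.3 at rank 4693 for sls-2.18, at 245 bp. These signals lie below the weakest optimal peak but above the pooled median of 64.2, and 3 of the 4 summits are past the 3′ end, as at 4 of the listed genes. The genes sls-2.5, sls-2.16 and sls-2.18 all lie in the glutamate receptor gene glr-2, sls-2.5 in an intron on its strand.

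The genes with no call within 200 bp in any list were sls-2.6, sls-2.7, sls-2.11, sls-2.12, sls-2.13 and sls-2.17. The sls-2.6 gene had a pooled call just outside the limit, with its summit at -210 bp and a signal of 74.8 at rank 9045. At the inner side of the limit stood sls-2.9, at -200 bp. The SL1 genes had no call in any list, 0 of 12 genes, and none lay within 500 bp of one.

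Read placement bears on the SL1 genes and on some SL2 genes, since a short read from a repeated sequence cannot be placed at one locus. Of the 36-base words of the SL1 genes themselves, 0% occur once in the genome, and of those from 200 bp upstream to 200 bp downstream at most 22.5% do, with a median over the 12 genes of 0%. The highest share belongs to the first copy of sls-1.10, with 21.8% upstream and 41.2% downstream of the gene. If only uniquely placed reads were used, few or none could be placed at most SL1 genes, and whether they were is not given in the sources used here. At the listed SL2 genes the share of unique 36-base words inside the gene was 41.3% for sls-2.1, 53.3% for sls-2.2, 78.7% for sls-2.4 and 100% for sls-2.8, sls-2.9 and sls-2.15. Downstream of the gene it was 100% for all 6. The strongest summits of sls-2.1 and sls-2.2, the genes with the lowest shares, lay outside the repeated gene body. The part of read placement in the position of the summits was not tested.

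Inside the gene body the median share of unique 36-base words was 89.3% for the 6 listed genes and 90.6% for the 12 others. With 200 bp on each side included it was 94.2% for the listed genes, with a lowest value of 86.9%, and 86.5% for the others, with a lowest value of 60.4%. With 50-base words the medians with both sides included were 97.1% for the listed genes and 93.5% for the others. Inside the gene they were 98.4% and 100%, and sls-2.4 had 96.7%. With 36-base words the others fell to 60.6% downstream, at sls-2.5 and sls-2.18. Within the gene, sls-2.3, which has no optimal peak, had 41.3% unique 36-base words, the same share as sls-2.1. The part of read placement in which genes have calls was not tested. Of the 36-base words that cover the strongest pooled summit, 100% were unique at 5 of the listed genes. At sls-2.9 the share was 55.6%, where the words of the tRNA gene upstream occur at up to 28 places. At sls-2.5, which has no optimal peak but a pooled call, it was 0%.

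**Figure D5:**
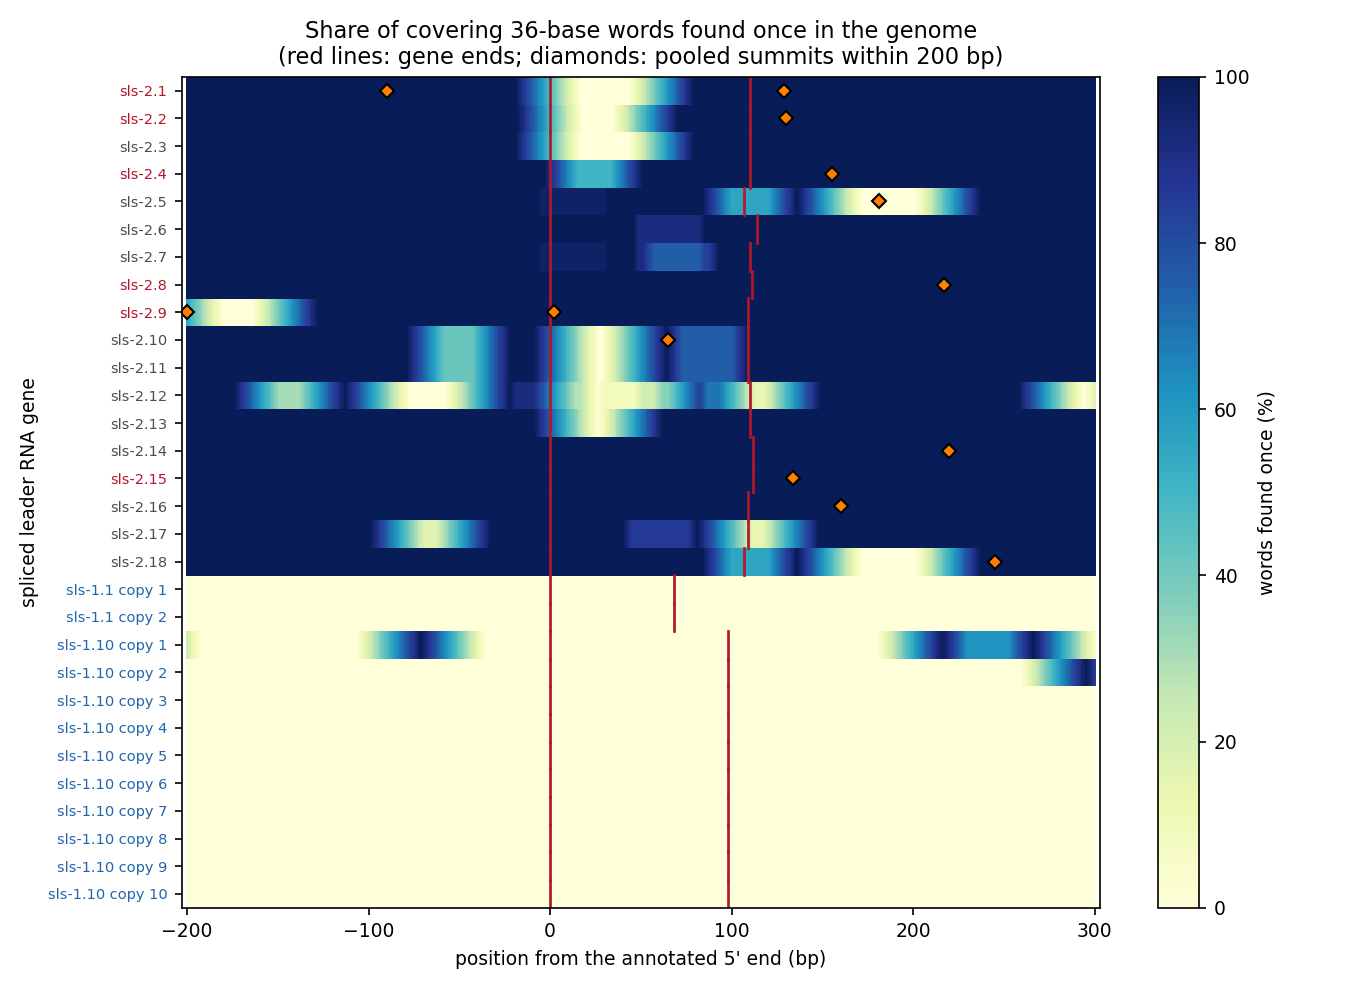
Share in percent, by colour, of the 36-base words covering each position that occur once in the genome, for 18 SL2 and 12 SL1 genes (rows), against position in bp from the annotated 5′ end. Red lines are gene ends and diamonds are pooled summits. Among the listed genes the repeated stretches lie inside sls-2.1, sls-2.2 and sls-2.4 and upstream of sls-2.9, and the SL1 rows are repeated over nearly their whole length.

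The listed genes are not a sequence class of their own. Of the 18 SL2 genes, 4 share the leader of sls-2.1, namely sls-2.1, sls-2.2, sls-2.3 and sls-2.4, and 3 of these are listed. The remaining 14 genes, 3 of them listed, carry other leaders, and sls-2.8, sls-2.9 and sls-2.15 each have one that no other gene shares. In all, the 18 genes hold 11 distinct leaders of 21 to 23 bases. The identity between whole genes ran from 71.6% to 96.4% over the 15 pairs of listed genes, with a median of 75.7%. Over the 72 pairs of a listed and an unlisted SL2 gene the median was also 75.7%, and the range 68.4% to 97.3%. In the 100 bp upstream the medians were 52.6% and 52.9%. The SL2 genes had 56.7% to 64.7% of their bases in common with sls-1.10.

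Closest among the listed genes were sls-2.2 and sls-2.4 with 96.4% identity, which ranked 50 and 2 in the pooled list. The divergent pair sls-2.14 and sls-2.15 had 92.9% identity and 83.7% in the 100 bp upstream. Both genes of each of these pairs have optimal peaks. Of sls-2.2 and sls-2.3, with 97.3% identity in the gene and 70.6% upstream, only sls-2.2 has an optimal, pooled or replicate 2 call within 200 bp. The word ATTTTTG, which resembles an Sm binding site, was found inside 5 of the 6 listed genes, all but sls-2.2, and inside 8 of the 12 others. It was found in 0 of the 12 SL1 genes and, on either strand, in 59.6% of the 99 other snRNA genes. The sls genes were searched on their own strand only, so these shares are not alike in that respect. Only this exact word was counted, so a gene without it may still hold an Sm binding site.

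The 100 bp before each gene were searched for short words on either strand. GTCGGTA was found before sls-2.2, sls-2.4 and sls-2.9 and before 3 of the 12 other SL2 genes, each time at -47 or -46 bp, against 18.2% of the 99 other snRNA genes and 0.316% of genes of any kind. An overlapping word, ACCGACA on the opposite strand at -48 or -47 bp, was found before 2 listed genes and 5 of the 12 others. It was found before 19.2% of the other snRNA genes and 0.546% of genes of any kind. AACCCGC lay at -59 bp before 1 listed gene, sls-2.15, and 8 others, against 24.2% of other snRNA genes and 0.405% of genes of any kind. CAAGCGA was found on the opposite strand at -65 bp before sls-2.1, sls-2.2, sls-2.3 and sls-2.4, and at -14 bp before sls-2.6 and sls-2.7, against 0% of the other snRNA genes and 0.412% of genes of any kind. In no gene do these 3 words overlap one another, and they were picked as shared words of the SL2 genes after the sequences were seen. TATAAA was found before 1 listed gene and 1 other SL2 gene, against 19.2% of the other snRNA genes and 17.5% of genes of any kind. GAGAG was found before 3 listed genes and 3 others, against 31.3% of the other snRNA genes and 13.5% of genes of any kind. Each of these words found before a listed gene was also found before an unlisted SL2 gene. A match in these letters is not a binding site.

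The genes whose replicate ranks were nearest to those of sls-2.4, by the summed absolute difference of log2 rank over the 2 replicates, were R12E2.11 and R12E2.18, which share its peak and have a difference of 0. Next was mdt-26, a Mediator subunit gene, with rank 1 in both replicates and a difference of 2. Of these 3 genes only mdt-26 is a separate locus.

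The other genes of the pathway were taken from a list of 36 names, of which 34 matched the annotation. It covers Sm proteins, spliced leader snRNP proteins, Sm assembly, cap hypermethylation, polyadenylation factors, the snRNA activating complex and the Integrator, which processes the ends of snRNAs. An optimal summit lay in the promoter window of 3 of the 34, which is 8.82%, against 1.61% of 19973 protein-coding genes. In the 665 strongest calls of replicate 1 and of replicate 2, the share of protein-coding genes was 1.56% and 1.49%. They were snr-1, snr-4 and ints-4. A pooled call of any rank was in the window of 20 of the 34, against 31.6% of protein-coding genes.

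The gene snr-1, which encodes an Sm protein, had a summit at -398 bp with a pooled signal of 236.2 at rank 86, and ranked 101 in replicate 1 and 104 in replicate 2. The gene snr-4, also for an Sm protein, had one at -348 bp with a pooled signal of 212.8 at rank 130, and ranked 279 and 108. That peak is the same as the one at the snRNA gene T11F9.15, whose 5′ end puts the summit at -47 bp, so it cannot be assigned to snr-4 alone. The Integrator gene ints-4 had one at -40 bp with a pooled signal of 165.9 at rank 326, and ranked 582 and 263. All 3 were thus among the 665 strongest calls in both replicates. The next in the list, the Integrator gene ints-8, had a pooled signal of 106.6 at rank 2009 in its promoter window. A much stronger optimal peak lay inside the ints-8 gene, at 6410 bp from its 5′ end and thus outside that window, with a signal of 399.3 at rank 8, and it ranked 24 in replicate 1 and 5 in replicate 2. The genes sna-1 and sna-2, for proteins of the spliced leader snRNP, and tbp-1, for the TATA-binding protein, had no pooled call in their windows.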

How the data were processed

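The 2 biological replicates form 1 group. The authors called intervals in each replicate and on both pooled, each with a control file, and derived the optimal list with IDR, the irreproducible discovery rate, on assembly ce11, per the deposited text files. Not given in the sources used here are the caller, its version, the read mapping and the IDR threshold. As signal the authors deposited an enrichment score of unstated scale, which was used to rank calls within a list. The deposited −log10 q-value served only as an alternative ranking. Summits were taken as deposited by the authors and set against Ensembl release 115 genes of WBcel235, the same assembly.

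For each sls gene the strongest call with a summit within 200 bp was taken in each list. Replicate ranks at an optimal peak came from the nearest call within 200 bp of its summit. Identity was computed by global alignment (match 1, mismatch -1, gap opening -2, extension -0.5), and words of 36 and 50 bases were counted over the genome on both strands. The distance rule was checked on simulated calls. The leader was first defined as the first 22 bases, and the definition in the text was set after the sequences were seen. Named genes were all sls genes, genes with a listed gene's optimal summit in the promoter window, the 3 nearest to sls-2.4 in rank, and at most 4 pathway genes. Genes near a summit were added where a result turns on them, and pathway genes without calls after their values were seen. The members and lists were chosen with earlier results of these data known. No test was made, since the genes were chosen from these calls and there is 1 group. Alternatives were other distances, the nearest call or gene, the stronger 332 optimal peaks, q-value ranking and each replicate alone. Python 3.11.15 was used with NumPy 2.4.6, pandas 2.3.3, Biopython 1.88 and matplotlib 3.10.9.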

Additional observations from a re-analysis of the deposited data

How the results depend on the processing

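Of 40 alternatives, 29 stayed within 1.5 times the count or within the spread between replicates, and 11 moved. The count of SL2 genes with an optimal summit, 7, became 4 within 100 bp. It became 3, sls-2.1, sls-2.2 and sls-2.4, when a summit counted only for its nearest gene of any kind, an alternative chosen after seeing the data. The strongest summits of sls-2.8, sls-2.9, sls-2.14 and sls-2.15 lie inside another gene. Outside the listed genes, the count of 1 became 0 within 100 bp, 0 among the stronger 332 optimal peaks, 0 with the nearest gene of any kind, and 2 within 500 bp, and ran from 0 to 1 with each replicate alone. The median signal of 210.4 at the listed genes became 182 with the nearest call, and 97.1 to 125 in the replicate lists, whose scale may differ. The median offset of 132 bp ran from 85.5 to 132 bp with each replicate alone. The SL1 count of 0 and the pathway count of 3 did not move under the alternatives run for them. The cause of each move was not tested beyond what the alternative itself changes. No paired analysis was possible because there is 1 group. The limits are 2 replicates, no read counts, no depth, and no control library or untagged strain analysed here.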
